A study of Mus musculus with 8 samples.

Results

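Messenger RNAs of secreted, membrane and lysosomal proteins were several-fold more abundant in the replicate 1 libraries than in the replicate 3 libraries of the same group, in all 4 groups, while most mRNAs of cytosolic proteins differed little. The libraries came from C2C12, a line of mouse muscle precursor cells that differentiates into myotubes once serum is withdrawn. The 4 groups were WT cells and cells that overexpressed AUF1 (the mRNA-binding protein encoded by Hnrnpd), each as total RNA and as RNA from heavy polysomes, the mRNAs that carry many ribosomes. All cells had been in medium with 10% fetal bovine serum and were then held for 48 h in 2% horse serum, and each library was made from 500 ng RNA. Each group had 2 libraries, numbered 1 and 3 in the library descriptions and in the column names of the count table, while the sample titles number the same libraries 1 and 2. The 4 replicate 1 libraries were set against the 4 replicate 3 libraries, each with its partner from the same group, which takes in all 8 of the 8 libraries. The column names also carry numbers after an S, 2, 3, 8 and 9 for replicate 1 and 18, 19, 24 and 25 for replicate 3, whose meaning the sources used here do not give. The sources also do not say whether a replicate number stands for a culture, an RNA extraction, a library preparation or a sequencing run, so these cannot be told apart, and p-values reflect how far these particular libraries vary, which may be technical variation. The vector of the AUF1 cells, and whether they are a pool or a clone, is likewise not given.

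Proteins that leave the cell, sit in its surface membrane or fill its lysosomes are made at the endoplasmic reticulum (ER). A hydrophobic stretch near the start of the growing chain, the signal peptide, or a membrane-spanning segment further on is bound by the signal recognition particle, which brings the ribosome and its mRNA to the ER membrane. Cytosolic and nuclear proteins are made on free ribosomes. Tail-anchored proteins have their only membrane segment at the C-terminus, so the chain is released before that segment emerges, and they are inserted after translation. Lysosomal enzymes start with a signal peptide and travel by way of the Golgi, so their mRNAs belong to those translated at the ER.

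Proteins were sorted on their sequence by these features. An N-terminal stretch was a window of 11 residues within the first 35 with a mean Kyte-Doolittle hydropathy (a scale on which oily residues score high) of at least 2.0 and no charged residue, and a membrane segment was a window of 19 residues after residue 35 with a mean of at least 1.8. The coding sequences printed here show what the classes look like at the level of the mRNA, from 4 mRNAs that differed by more than 10-fold between the replicate numbers and 2 that did not. They are 35 codons each from GENCODE M21 transcripts (mm10), 5′ to 3′ in the sense of the mRNA, and capitals mark the codons of the most hydrophobic qualifying window. The first lines are the starts of the coding sequences of Bsg (chromosome 10, 79704491 to 79711969, plus strand), a surface glycoprotein, Ctsb (chromosome 14, 63122462 to 63145923, plus strand), the lysosomal protease cathepsin B, Sparc (chromosome 11, 55394500 to 55423183, minus strand), a matrix glycoprotein, and Igfbp7 (chromosome 5, 77349240 to 77408041, minus strand), a secreted binding protein of insulin-like growth factors. Actb (chromosome 5, 142903115 to 142906754, minus strand), cytoplasmic actin, has no such window. The last line is the end of the coding sequence of Sec61b (chromosome 4, 47474658 to 47483242, plus strand), a tail-anchored subunit of the ER channel, without its stop codon. The 6 genes were chosen for display after their values were seen.
Bsg: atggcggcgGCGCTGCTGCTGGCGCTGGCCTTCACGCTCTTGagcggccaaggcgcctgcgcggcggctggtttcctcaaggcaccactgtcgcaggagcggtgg
Ctsb: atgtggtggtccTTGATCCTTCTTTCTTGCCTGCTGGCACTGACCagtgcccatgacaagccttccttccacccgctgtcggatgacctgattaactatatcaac
Sparc: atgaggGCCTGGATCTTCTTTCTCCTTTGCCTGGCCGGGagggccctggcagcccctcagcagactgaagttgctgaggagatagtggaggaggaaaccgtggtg
Igfbp7: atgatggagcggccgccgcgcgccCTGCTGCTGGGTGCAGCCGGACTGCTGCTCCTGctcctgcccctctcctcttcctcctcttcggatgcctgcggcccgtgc
Actb: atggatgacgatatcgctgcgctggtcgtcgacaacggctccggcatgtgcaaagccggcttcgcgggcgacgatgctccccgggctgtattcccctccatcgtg
Sec61b: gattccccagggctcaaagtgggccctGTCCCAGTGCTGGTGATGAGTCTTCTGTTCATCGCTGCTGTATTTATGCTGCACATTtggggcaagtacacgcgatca

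The 4 starts share a run of codons for leucine, alanine and other oily residues, at residues 4 to 14 of Bsg, 5 to 15 of Ctsb, 3 to 13 of Sparc and 9 to 19 of Igfbp7. In Sec61b the run lies at residues 71 to 89 of 96, close to the end. The level of each mRNA is given as CPM, counts scaled to a common library size and adjusted between libraries by TMM (trimmed mean of M-values), with replicate 1 before replicate 3 in every pair of values. Bsg stood at 1114 and 61.2 CPM in WT total RNA, 1422 and 77.4 in AUF1 total RNA, 933 and 35.5 on WT polysomes, and 1009 and 42.9 on AUF1 polysomes. Igfbp7 stood at 457 and 21.4 CPM in WT total RNA, 326 and 20.99 in AUF1 total RNA, 524 and 18.5 on WT polysomes, and 359 and 20.1 on AUF1 polysomes. For both, the lowest replicate 1 library lay above 10 times the highest replicate 3 library, and the fitted differences were 21.3-fold (log2 difference 4.41 ± 0.19 (SE), adjusted p = 2.0e-06 by edgeR's quasi-likelihood test) and 20.2-fold. For Igfbp7 the log2 difference was 4.34 ± 0.20 (SE, edgeR adjusted p = 2.0e-06). Sparc stood at 9124 and 664 CPM in WT total RNA, 4526 and 394 in AUF1 total RNA, 4722 and 515 on WT polysomes, and 2940.2 and 347 on AUF1 polysomes, a difference of 10.5-fold. For Sparc the log2 difference was 3.39 ± 0.19 (SE, edgeR adjusted p = 2.8e-06). Actb stood at 3504 and 3347 CPM in WT total RNA, 3553 and 2619 in AUF1 total RNA, 2612 and 3072 on WT polysomes, and 2629 and 2741 on AUF1 polysomes, so its libraries overlapped and it did not pass the test. For Actb the log2 difference was 0.05 ± 0.17 (SE, edgeR adjusted p = 0.84). Sec61b stood at 71.9 and 63.5 CPM in WT total RNA, 45.3 and 38.2 in AUF1 total RNA, 55.7 and 82.7 on WT polysomes, and 29.7 and 48.8 on AUF1 polysomes, higher in replicate 1 in both pairs of total RNA and lower in both pairs of polysomes, and did not pass either. For Sec61b the log2 difference was -0.22 ± 0.21 (SE, edgeR adjusted p = 0.48).

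**Figure D1:**
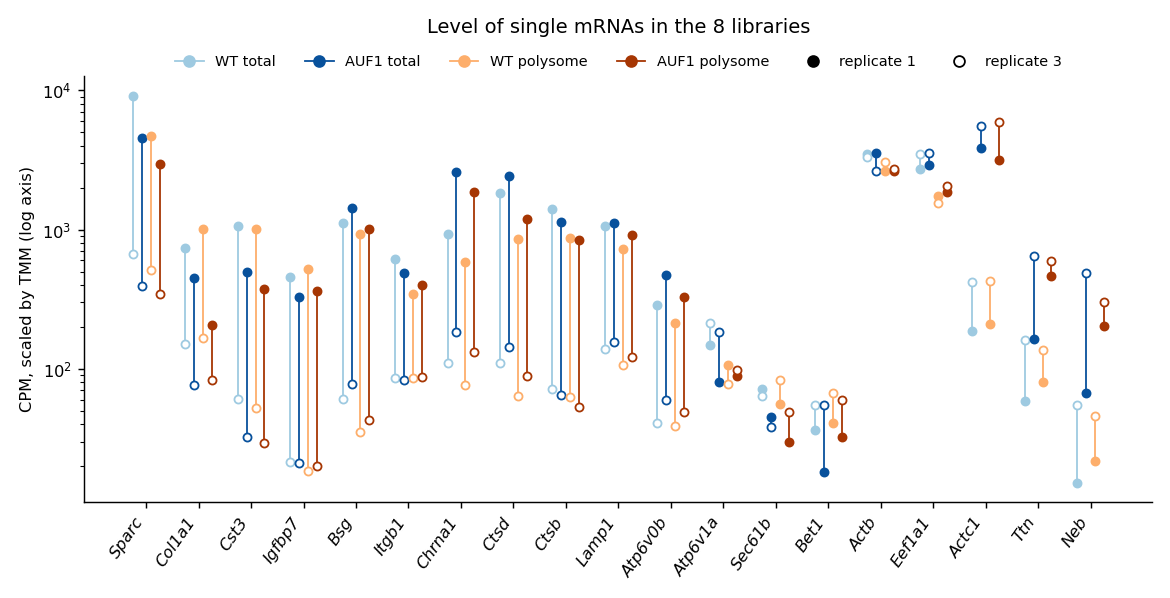
Level of 19 mRNAs (x axis) in CPM on a log axis (y axis) in every library, filled points for replicate 1, open points for replicate 3 and a line joining the 2 libraries of a group, with colours for the 4 groups. The lines are long and point down from Sparc to Atp6v0b, short for Atp6v1a, Sec61b, Actb and Eef1a1, and run the other way for Bet1, Actc1, Ttn and Neb.

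Counts assigned to genes ranged from 25281224 to 34917660 per library, 25730815 to 34917660 in replicate 1 and 25281224 to 28367635 in replicate 3. Hnrnpd (chromosome 5, 99955935 to 99978938 in mm10), the overexpressed gene, stood at 64.2 and 99.6 CPM in WT total RNA, 448 and 397 in AUF1 total RNA, 106 and 131 on WT polysomes, and 549 and 427 on AUF1 polysomes, higher with AUF1 in all 4 comparisons within a number and not called between them. For Hnrnpd the log2 difference was -0.10 ± 0.19 (SE, edgeR adjusted p = 0.75). The markers of muscle cells were present in every library, with 14 of the 15 listed genes above a mean of 1 CPM. Sums over marker genes were scaled to library totals only, without TMM, unlike the levels of single genes. The TMM factors differed within pairs (0.960 and 1.127 in WT total RNA), so a small difference between 2 sums may change sign with TMM. Muscle markers summed to 6644 and 7168 in WT total RNA, 29271 and 25155 in AUF1 total RNA, 5879 and 8089.6 on WT polysomes, and 24467 and 26878 on AUF1 polysomes. Markers of fibroblasts (8 of 13 above 1 CPM) summed to 1737 and 686 in WT total RNA, 613 and 419 in AUF1 total RNA, 1334 and 374 on WT polysomes, and 385 and 230.4 on AUF1 polysomes, and so were higher in replicate 1 in all 4 pairs. Of these 13 fibroblast markers, 12 encode proteins with an N-terminal stretch, and their part in the differences described here was not tested. On the same scale, markers of immune cells (1 of 11 above 1 CPM) summed to at most 14.4 and those of endothelium (2 of 9) to at most 23.0 in any library. In bulk RNA, fewer cells of a type and less RNA per cell cannot be told apart.

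Genes differed between the numbers in both directions. Of 13167 genes tested with edgeR in a model of group plus number, 2740 (20.8%) were higher in replicate 1 and 1183 (8.98%) lower at an adjusted p under 0.05. The first principal component of log2 CPM, with 44.6% of the variance, set replicate 1 apart from replicate 3 and the second, with 37.1%, set AUF1 apart from WT. Higher calls made up 69.8% of all calls with TMM scaling, 52.4% with library totals only, 62.2% with DESeq2 size factors and 87.9% with scaling on genes whose protein has neither feature. The median of all genes moved by -0.17, -0.07 and 0.14 on the log2 scale between these 3 scalings and TMM. With DESeq2, which changes the test as well, the share was 55.6%. The split into higher and lower calls thus moved with the scaling, and the classes are therefore compared with each other as well as with 0. The larger differences lay on the side of replicate 1, where 2191 called genes with a coding sequence differed at least 2-fold and 246 at least 8-fold, against 178 and 3 on the side of replicate 3. The number of lower calls rested on the WT total libraries, since it was 335 without replicate 1 and 323 without replicate 3 of that group. Without the group terms that pair the libraries, 2035 genes were called, 1951 higher and 84 lower.

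Genes were then sorted by the encoded protein. Of the 13167 tested genes, 12588 (95.6%) had a coding sequence in GENCODE M21. Proteins with an N-terminal stretch and no membrane segment, the form of secreted and lysosomal proteins, were encoded by 1043 genes, of which 677 were higher in replicate 1 and 20 lower, with a median log2 difference of 1.46. With a stretch and at least 1 segment, the form of most surface receptors, 749 of 949 were higher and 2 lower (median 1.65). With no stretch and 2 or more segments, as in many transporters, 518 of 708 were higher and 4 lower (median 1.37). A single segment away from the C-terminus gave 298 higher and 23 lower of 762 (median 0.32). A single segment within 30 residues of the C-terminus gave 48 higher and 20 lower of 209 (median -0.06). The 8917 genes whose protein had neither feature had 412 higher and 1059 lower calls (median -0.18), while the median of all tested genes was -0.06.

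In each of the 4 groups the 3 classes with a stretch or 2 or more segments had higher medians than the other 3, while the order within these 2 sets varied between groups. The 2700 genes with a stretch or with 2 or more segments had medians of 1.38 in WT total RNA, 1.49 in AUF1 total RNA, 1.35 on WT polysomes and 1.45 on AUF1 polysomes, and the genes with neither had -0.15 in WT total RNA, -0.09 in AUF1 total RNA, -0.18 on WT polysomes and -0.19 on AUF1 polysomes. The gap between these medians in the fit of all libraries was 1.68 on the log2 scale. A change of scaling shifts all genes by nearly the same amount, so it is no check of this gap. It was 1.67 to 1.70 when any 1 library was left out, 1.63 in the WT libraries alone and 1.73 in the AUF1 libraries alone. Of the 2702 higher calls with a coding sequence, 1944 (71.9%) belonged to these classes, against 26 of the 1128 lower calls (2.305%) and 730 of the 8758 genes not called (8.34%). Among higher calls of at least 8-fold the share was 204 of 246 (82.9%). By number of membrane segments, genes without a stretch had medians of 1.22 with 2 to 3 segments, 1.45 with 4 to 6, 1.46 with 7 to 9 and 1.34 with 10 or more (17 genes), and 0.24 with a single segment of either position.

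**Figure D2:**
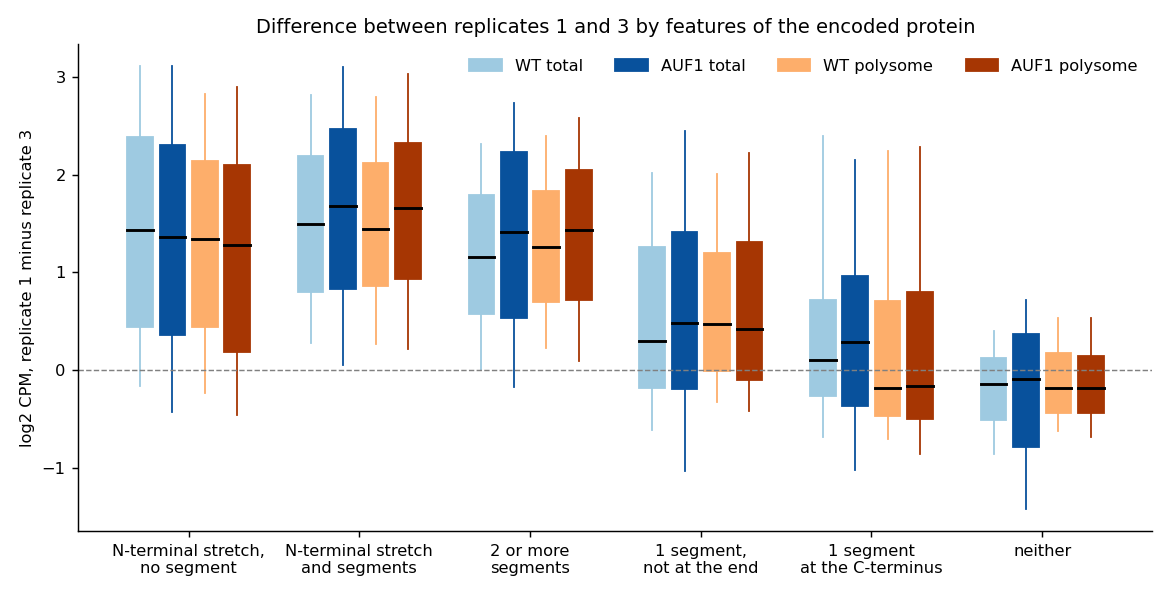
Difference in log2 CPM between the replicate 1 and the replicate 3 library of a group (y axis) for genes sorted by features of the encoded protein (x axis), in colours for the 4 groups. Black bars are medians, boxes span the middle 50% and lines the middle 80% of genes. In the 3 classes on the left the medians lie between 1.16 and 1.68 in all groups, and in the class with neither feature between -0.19 and -0.09.

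The classes also took different shares of each library's counts. Genes with a stretch or 2 or more segments held 24.6% and 8.90% in WT total RNA, 20.1% and 6.89% in AUF1 total RNA, 23.0% and 9.02% on WT polysomes, and 19.1% and 6.66% on AUF1 polysomes of all gene counts. The replicate 1 shares of 19.1% to 24.6% thus lay above the replicate 3 shares of 6.66% to 9.02% in every group, with a mean difference of 13.9 percentage points ± 1.40 (SD, n = 4 pairs). In an exact two-sided sign-flip permutation test over the 4 pairs, 2 of 16 arrangements gave a difference as large, which is the smallest share this design allows. Without the collagen genes the difference was 13.7 points. Genes of the lysosomal lists held 0.9302% to 1.45% of counts in replicate 1 and 0.157% to 0.224% in replicate 3. Genes with neither feature made up 65.5% to 72.2% in replicate 1 and 82.4% to 86.4% in replicate 3.

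**Figure D3:**
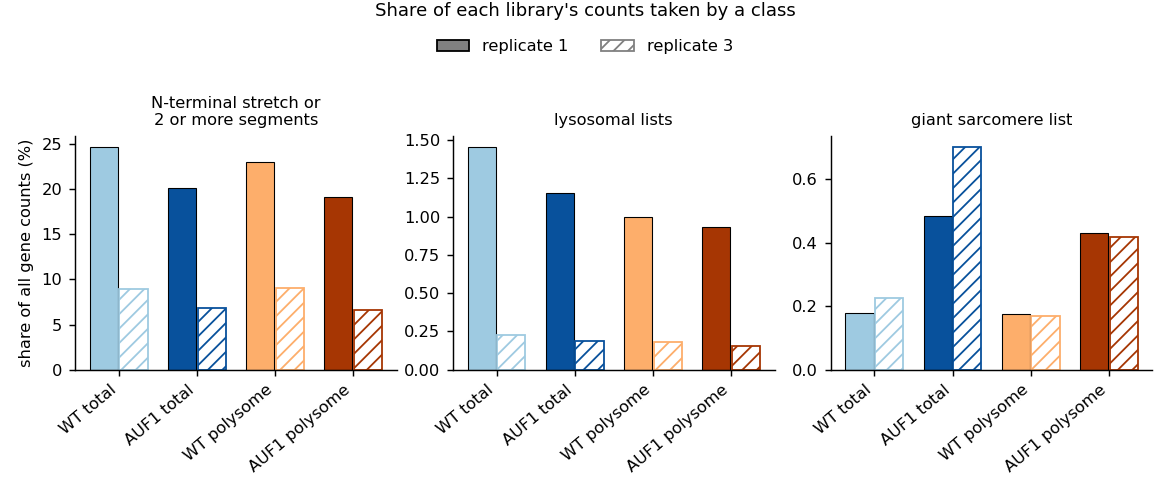
Share of all gene counts in percent (y axis, from 0) in the replicate 1 library (filled bars) and the replicate 3 library (hatched bars) of each group (x axis), for 3 gene sets. The left and middle panels show taller replicate 1 bars in every group, 19.1% to 24.6% against 6.66% to 9.02% on the left, and the right panel shows the taller bar for replicate 3 in both groups of total RNA.

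Secreted proteins were followed through hand-written gene lists, in which 114 of 140 tested genes were higher in replicate 1 and 2 lower, against 20.8% and 8.98% of all genes. These lists and those that follow were chosen with earlier results of these data known. Their counts are thus no independent check of the classes by sequence. Collagens, the fibres of the matrix, were higher for 16 of 19 (median log2 difference 1.64). Col1a1, the main chain of type I collagen, stood at 741 and 152 CPM in WT total RNA, 453 and 77.2 in AUF1 total RNA, 1015 and 166 on WT polysomes, and 205 and 83.5 on AUF1 polysomes, each replicate 1 library above every replicate 3 library. For Col1a1 the log2 difference was 2.19 ± 0.24 (SE, edgeR adjusted p = 7.3e-05). Col3a1 of type III collagen, which the sequence rule put among proteins with neither feature, stood at 3357 and 426 CPM in WT total RNA, 1045 and 299 in AUF1 total RNA, 1767 and 443 on WT polysomes, and 501 and 305 on AUF1 polysomes. Its log2 difference was 1.88 ± 0.32 (SE, edgeR adjusted p = 0.0014), and its 4 pairs spanned log2 differences of 0.72 on AUF1 polysomes to 2.98 in WT total RNA. The basement membrane chain Col4a1 ranged over 73.2 to 209 CPM in replicate 1 and 19.3 to 40.02 CPM in replicate 3, and the type V chains Col5a2 and Col5a3 differed 3.76-fold and 6.59-fold. Other matrix proteins were higher for 39 of 45 (median 1.67). Among them were Spp1 (osteopontin) at 365 to 697 CPM in replicate 1 and 53.7 to 64.0 CPM in replicate 3, Postn (periostin) at 86.4 to 249 against 14.8 to 45.8 CPM and Fbln1 (fibulin 1) at 4.66 to 22.9 against 0.553 to 3.23 CPM. Fn1, fibronectin, a longer matrix glycoprotein, stood at 3036 and 1293 CPM in WT total RNA, 2709.6 and 1019.7 in AUF1 total RNA, 3569.6 and 1594 on WT polysomes, and 1969 and 1055 on AUF1 polysomes, a difference of 2.26-fold. For Fn1 the log2 difference was 1.18 ± 0.16 (SE, edgeR adjusted p = 3.7e-04).

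Secreted enzymes and inhibitors were higher in replicate 1 for 26 of 30 (median 2.15). Cst3, the cysteine protease inhibitor cystatin C, stood at 1054 and 60.3 CPM in WT total RNA, 494 and 32.5 in AUF1 total RNA, 1011 and 52.3 on WT polysomes, and 373 and 29.2 on AUF1 polysomes, with no overlap between the numbers. For Cst3 the log2 difference was 4.0003 ± 0.18 (SE, edgeR adjusted p = 2.0e-06). The metalloproteinase inhibitors Timp2 and Timp1 ranged over 2139 to 3239 CPM in replicate 1 and 161 to 294 CPM in replicate 3, and over 337 to 562 CPM in replicate 1 and 34.1 to 57.6 CPM in replicate 3. Cpe, carboxypeptidase E, differed 10.2-fold. Secreted signals, the growth factors and their binding proteins, were higher for 33 of 46 and lower for 2 (median 1.35). The follistatin-like Fstl1 ranged over 639.6 to 2146 CPM in replicate 1 and 103 to 215 CPM in replicate 3, and Fstl3 over 109 to 134 CPM in replicate 1 and 10.99 to 18.5 CPM in replicate 3. Grn, the progranulin that is both secreted and sent to lysosomes, ranged over 161 to 432 CPM in replicate 1 and 22.2 to 32.9 CPM in replicate 3.

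Membrane proteins of the lists were higher in replicate 1 for 133 of 150 and lower for 0, against 20.8% and 8.98% of all genes. Integrins and adhesion proteins had 42 of 45 higher (median 2.24). Itgb1, the beta chain shared by most integrins, stood at 615 and 86.2 CPM in WT total RNA, 485 and 83.1 in AUF1 total RNA, 346 and 85.4 on WT polysomes, and 397 and 86.9 on AUF1 polysomes, so that replicate 3 was nearly level across the groups while replicate 1 varied. For Itgb1 the log2 difference was 2.40 ± 0.18 (SE, edgeR adjusted p = 1.0e-05). The tetraspanins Cd63 and Tspan3 ranged over 603 to 811 CPM in replicate 1 and 36.2 to 58.6 CPM in replicate 3, and over 174 to 336 CPM in replicate 1 and 13.3 to 21.9 CPM in replicate 3. Receptors had 52 of 57 higher (median 1.18). Chrna1, the alpha subunit of the muscle acetylcholine receptor, stood at 924 and 111 CPM in WT total RNA, 2573 and 184 in AUF1 total RNA, 583 and 76.4 on WT polysomes, and 1855 and 132 on AUF1 polysomes. For Chrna1 the log2 difference was 3.40 ± 0.22 (SE, edgeR adjusted p = 4.0e-06). It was higher with AUF1 than in WT within both numbers, and replicate 1 of WT lay above replicate 3 of AUF1. Chrnb1, the beta subunit, differed 4.37-fold, the phosphatase Ptprs 5.63-fold and the Wnt coreceptor Lrp5 4.82-fold. Transporters and channels had 39 of 48 higher (median 1.66), among them Cacng1, the gamma subunit of the muscle calcium channel (6.17-fold), Slc12a4, a potassium chloride cotransporter (4.62-fold), and the sodium pump subunits Atp1b1 (6.95-fold) and Atp1b3 (4.09-fold).

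Proteins of the ER and Golgi themselves were higher in replicate 1 for 61 of 65 (median 2.26), against 20.8% of all genes. Hspa5, the chaperone of the ER lumen known as BiP, stood at 522 and 125 CPM in WT total RNA, 639 and 118 in AUF1 total RNA, 443 and 173 on WT polysomes, and 609 and 151 on AUF1 polysomes. For Hspa5 the log2 difference was 1.97 ± 0.20 (SE, edgeR adjusted p = 4.7e-05). Ssr2, a subunit of the complex beside the protein channel, ranged over 199.5 to 284 CPM in replicate 1 and 14.7 to 22.1 CPM in replicate 3. Crtap, a partner of the collagen-modifying enzymes, ranged over 95.3 to 167 CPM in replicate 1 and 7.08 to 13.2 CPM in replicate 3, and Ddost, a subunit of the oligosaccharyltransferase that adds sugars, over 160.2 to 333 CPM in replicate 1 and 16.1 to 27.8 CPM in replicate 3. Prdx4, the peroxiredoxin of the ER and 1 of the 10 largest rises, ranged over 59.6 to 104 CPM in replicate 1 and 3.10 to 5.30 CPM in replicate 3. For Prdx4 the log2 difference was 4.25 ± 0.18 (SE, edgeR adjusted p = 2.0e-06). In all 5 the replicate 1 libraries lay above all replicate 3 libraries.

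Lysosomal proteins were almost all higher in replicate 1. Of 66 tested genes 64 were higher in replicate 1 and 0 lower, against 20.8% and 8.98% of all genes. The medians were 2.75 in WT total RNA, 2.52 in AUF1 total RNA, 2.28 on WT polysomes and 2.16 on AUF1 polysomes. Enzymes and other proteins of the lumen had 43 of 44 higher (median 2.56). Ctsb stood at 1414 and 71.1 CPM in WT total RNA, 1133 and 64.4 in AUF1 total RNA, 871 and 62.5 on WT polysomes, and 844 and 53.5 on AUF1 polysomes. Cathepsin D (Ctsd) stood at 1828 and 111 CPM in WT total RNA, 2408 and 144 in AUF1 total RNA, 856 and 63.4 on WT polysomes, and 1191 and 89.5 on AUF1 polysomes. No replicate 3 library reached any replicate 1 library for either. The fitted differences were 16.6-fold (log2 difference 4.06 ± 0.18 (SE), adjusted p = 2.0e-06) and 14.9-fold. For Ctsd the log2 difference was 3.90 ± 0.17 (SE, edgeR adjusted p = 2.0e-06). Ctsz and Ctsl, also cathepsins, differed 12.9-fold and 12.6-fold. Psap, the precursor of the saposins that help to break down sphingolipids, stood at 1461 and 85.3 CPM in WT total RNA, 1486 and 74.7 in AUF1 total RNA, 496 and 58.9 on WT polysomes, and 457 and 56.3 on AUF1 polysomes. The difference of Psap was larger in total RNA than on polysomes (interaction -1.16 ± 0.21, SE, adjusted p = 0.029), a call lost with DESeq2 size factors and without AUF1 total replicate 3. Membrane proteins of the lysosome had 21 of 22 higher (median 2.00). Lamp1, their most studied member, stood at 1064 and 138 CPM in WT total RNA, 1113 and 156 in AUF1 total RNA, 729.8 and 107 on WT polysomes, and 918 and 122 on AUF1 polysomes (log2 difference 2.87 ± 0.15 (SE), adjusted p = 2.6e-06), and Laptm4a, the acetyltransferase Hgsnat and the channel Mcoln1 differed 7.93-fold, 7.46-fold and 6.39-fold.

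The proton pump that acidifies the lysosome, the V-ATPase, has a membrane part, V0, whose subunits are inserted at the ER, and a cytosolic part, V1, whose subunits are made on free ribosomes. All 8 tested genes of the V0 list and its accessory proteins were higher in replicate 1 (median 2.28). Of the 9 V1 genes 0 were higher and 2 lower (median -0.08, and 0.07 with scaling on the genes with neither feature). The shares over all genes were 20.8% higher and 8.98% lower. Atp6v0b of V0 stood at 289 and 41.2 CPM in WT total RNA, 472 and 60.05 in AUF1 total RNA, 214 and 38.9 on WT polysomes, and 327 and 49.3 on AUF1 polysomes. For Atp6v0b the log2 difference was 2.74 ± 0.16 (SE, edgeR adjusted p = 3.4e-06). The accessory proteins Atp6ap1 and Atp6ap2 differed 10.7-fold and 8.46-fold. Atp6v1a, the catalytic subunit of V1, stood at 148 and 213 CPM in WT total RNA, 80.8 and 183 in AUF1 total RNA, 107 and 77.5 on WT polysomes, and 89.5 and 98.9 on AUF1 polysomes, lower in replicate 1 in 3 of 4 pairs, and did not pass. For Atp6v1a the log2 difference was -0.35 ± 0.24 (SE, edgeR adjusted p = 0.32). The V1 genes called lower were Atp6v1g1 (log2 difference -0.90 ± 0.23 (SE), adjusted p = 0.016) and Atp6v1c1 (log2 difference -0.48 ± 0.15 (SE), adjusted p = 0.043), of which the latter lost its call under 14 of 18 alternatives. Atp6v0c, the subunit of the membrane ring, had at most 3 counts in any library and was not tested.

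**Figure D4:**
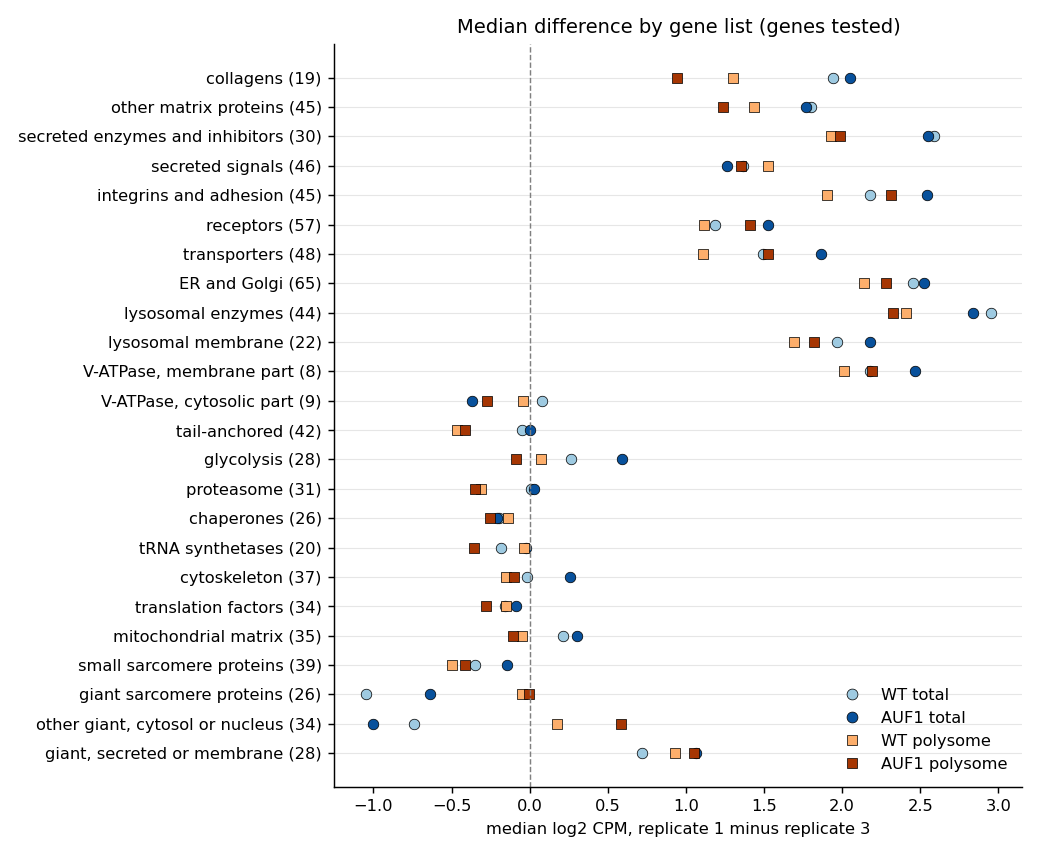
Median difference in log2 CPM between replicates 1 and 3 (x axis) of the tested genes of 24 lists (y axis, number of genes tested in brackets), with circles for total RNA, squares for polysomes and colours for the 4 groups. The 11 lists at the top, made at the ER, lie between 0.94 and 2.95 in all groups, the cytosolic and tail-anchored lists lie between -0.46 and 0.59, and the 2 lists of giant cytosolic, nuclear and sarcomere proteins lie between -1.05 and -0.64 in total RNA and between -0.05 and 0.58 on polysomes.

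Tail-anchored proteins end up in membranes, yet their mRNAs did not follow those of the other membrane proteins. Of 42 tested genes 0 were higher in replicate 1 and 5 lower (0% and 11.9%, against 20.8% and 8.98% of all genes), with medians of -0.05 in WT total RNA, 0.00 in AUF1 total RNA, -0.46 on WT polysomes and -0.42 on AUF1 polysomes. The share of lower calls was thus near that of all genes. Bet1, which helps vesicles from the ER to fuse with the Golgi, stood at 36.7 and 55.4 CPM in WT total RNA, 18.3 and 55.2 in AUF1 total RNA, 41.2 and 67.6 on WT polysomes, and 32.3 and 59.8 on AUF1 polysomes, lower in replicate 1 in each pair and with no overlap between the numbers. For Bet1 the log2 difference was -0.94 ± 0.20 (SE, edgeR adjusted p = 0.0062). Vamp4, Stx12 and Vapa, of vesicle fusion and membrane contacts, had log2 differences of -0.76 ± 0.20, -0.55 ± 0.15 and -0.58 ± 0.16 (SE), with edgeR adjusted p = 0.017, 0.022 and 0.025. These 3 lost the call under 4, 9 and 9 of 18 alternatives. Sdc3, the proteoglycan syndecan 3, fell into the class with a single segment near the C-terminus but is a surface protein, and it differed 15.8-fold in the direction of the surface proteins. For Sdc3 the log2 difference was 3.98 ± 0.16 (SE, edgeR adjusted p = 2.0e-06).

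Cytosolic proteins of the lists, 142 tested genes, had 12 higher and 8 lower calls, 8.45% and 5.63% against 20.8% and 8.98% of all genes. Proteasome subunits had 0 and 1 of 31, chaperones 1 and 1 of 26, and tRNA synthetases 1 and 4 of 20, higher and lower in that order. Glycolysis and the pentose phosphate pathway had 4 of 28 higher and 0 lower. Those 4 were the transketolase Tkt at 64.4 to 121 CPM in replicate 1 and 30.7 to 46.8 CPM in replicate 3, Pgd, Hk1 and Ldha, with log2 differences of 1.31 ± 0.16, 1.18 ± 0.15, 0.87 ± 0.18 and 0.74 ± 0.16 (SE) and edgeR adjusted p from 1.8e-04 to 0.0079. Gapdh, which has many near-identical copies in the mouse genome, stood at 0.881 to 4.94 CPM in replicate 1 and 0.667 to 2.32 CPM in replicate 3, a level that may not be that of the gene, and is not used. Pgd and Ldha passed the rule for an N-terminal stretch although both are cytosolic enzymes. Cytoskeletal proteins had 6 of 37 higher and 2 lower (median 0.01, and -0.06 and -0.15 with DESeq2 size factors and library totals). The higher ones included proteins of adhesion sites and actin crosslinkers: vinculin (Vcl) at 397 to 714 CPM in replicate 1 and 185 to 245 CPM in replicate 3, filamin A (Flna) at 959 to 2147 CPM in replicate 1 and 458 to 874 CPM in replicate 3, and the actinins Actn1 and Actn4 (1.66-fold and 1.62-fold).

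Translation factors had 1 of 34 higher and 4 lower (2.94% and 11.8%, against 20.8% and 8.98% of all genes). Eef1a1, the elongation factor that brings tRNA to the ribosome, stood at 2718 and 3468 CPM in WT total RNA, 2909 and 3568 in AUF1 total RNA, 1741 and 1541 on WT polysomes, and 1863 and 2047 on AUF1 polysomes and did not pass. For Eef1a1 the log2 difference was -0.15 ± 0.16 (SE, edgeR adjusted p = 0.52). Eif2s2, a subunit of the initiation factor eIF2, was lower in replicate 1. For Eif2s2 the log2 difference was -1.08 ± 0.22 (SE, edgeR adjusted p = 0.0045). Nuclear-encoded proteins of the mitochondrial matrix also carry an N-terminal targeting sequence, but a charged one, and they had 5 of 35 higher and 1 lower (median 0.02, and -0.05 and -0.15 with DESeq2 size factors and library totals). The gene called lower was Mthfd2 of folate metabolism, at 55.6 and 119 CPM in WT total RNA, 181 and 359 in AUF1 total RNA, 51.1 and 127 on WT polysomes, and 173 and 424 on AUF1 polysomes, although its sequence passed as an N-terminal stretch. For Mthfd2 the log2 difference was -1.17 ± 0.15 (SE, edgeR adjusted p = 2.2e-04).

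Large proteins of the sarcomere, the contractile unit of muscle, or attached to it, listed as giant sarcomere proteins, were lower in replicate 1 in total RNA by their median. In the fit of all libraries, which joins total RNA and polysomes, the median of this list was -0.38, and -0.54 to -0.24 over the scalings. Of 26 tested genes of this list 2 were higher and 6 lower in replicate 1 (7.69% and 23.1%, against 20.8% and 8.98% of all genes). The medians were -1.05 in WT total RNA, -0.64 in AUF1 total RNA, -0.05 on WT polysomes and -0.01 on AUF1 polysomes. Only 10 of these 26 encode proteins of 2000 residues or more, and the medians of the 10 were -1.07 in WT total RNA, -1.02 in AUF1 total RNA, 0.00 on WT polysomes and 0.24 on AUF1 polysomes. The 16 shorter ones had -1.05 in WT total RNA, -0.54 in AUF1 total RNA, -0.05 on WT polysomes and -0.13 on AUF1 polysomes. Both sets had 1 higher and 3 lower calls in the fit of all libraries. By the medians, the fall in WT total RNA was not particular to the longest proteins of the list. In AUF1 total RNA the median of the 10 longest lay further below 0 than that of the 16 shorter ones. Ttn (chromosome 2, 76703980 to 76982547 in mm10), which encodes the molecular spring titin, stood at 59.1 and 160.0 CPM in WT total RNA, 163 and 650.4 in AUF1 total RNA, 81.0 and 137 on WT polysomes, and 467 and 591 on AUF1 polysomes, lower in replicate 1 in 4 of 4 pairs. Its log2 difference was -1.13 ± 0.26 (SE, edgeR adjusted p = 0.0091), and it lost its call when either WT total library was left out. Ttn and Neb both lost the call without the pairing by group. Neb (chromosome 2, 52136647 to 52378474), which encodes nebulin of the thin filament, stood at 15.2 and 54.7 CPM in WT total RNA, 67.0 and 489 in AUF1 total RNA, 21.8 and 45.9 on WT polysomes, and 204 and 302 on AUF1 polysomes. For Neb the log2 difference was -1.58 ± 0.33 (SE, edgeR adjusted p = 0.0059). The numbers overlap for both genes since AUF1 libraries held more of them than WT libraries within each number. For both, the difference itself differed between fractions, by 1.17 ± 0.26 for Ttn and 1.56 ± 0.34 for Neb (SE, edgeR interaction, adjusted p = 0.035 and 0.034), being wider in total RNA. Both interaction calls were lost with DESeq2 size factors and without AUF1 total replicate 3. Mybpc1, a myosin-binding protein of 1124 residues, and Xirp2, a repeat protein of the intercalated and Z discs, were also lower (log2 difference -2.23 ± 0.33 (SE), adjusted p = 5.8e-04, and log2 difference -1.69 ± 0.34 (SE), adjusted p = 0.0048), at low levels of 0.122 to 21.3 and 0.527 to 5.92 CPM over the 8 libraries. Myh3, embryonic myosin, had a log2 difference of -0.50 ± 0.20 (SE) with an edgeR adjusted p = 0.084. Dmd, dystrophin, was near the limit of detection at 0.0810 to 0.715 CPM in replicate 1 and 0.254 to 0.667 CPM in replicate 3.

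Small sarcomere proteins had 1 of 39 higher and 10 lower (2.56% and 25.6%, against 20.8% and 8.98% of all genes). The medians were -0.35 in WT total RNA, -0.15 in AUF1 total RNA, -0.50 on WT polysomes and -0.41 on AUF1 polysomes. Actc1, cardiac actin, which developing muscle also makes, stood at 187 and 422 CPM in WT total RNA, 3880.3 and 5538 in AUF1 total RNA, 210.4 and 429.8 on WT polysomes, and 3171 and 5944 on AUF1 polysomes, lower in replicate 1 in each pair. For Actc1 the log2 difference was -0.91 ± 0.17 (SE, edgeR adjusted p = 0.0029). Ankrd2, an ankyrin repeat protein of the sarcomere, fast troponin T (Tnnt3) and the myosin light chain Myl1 had log2 differences of -1.03 ± 0.18, -0.80 ± 0.16 and -0.71 ± 0.16 (SE), with edgeR adjusted p from 0.0021 to 0.0075. These 4 lost the call without the pairing by group, under which the difference between WT and AUF1 enters the spread.

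The pattern of the list of giant sarcomere proteins was set beside that of other giant proteins. Giant proteins of the cytosol and nucleus had medians of -0.74 in WT total RNA, -1.002 in AUF1 total RNA, 0.17 on WT polysomes and 0.58 on AUF1 polysomes over 34 genes. They had 1 higher and 0 lower calls between the numbers, against 20.8% and 8.98% of all genes. The log2 difference on polysomes exceeded that in total RNA in 21 of these 34 genes by edgeR's interaction test, against 4.87% of all genes. Like all calls of that test, these were lost with DESeq2 size factors and without AUF1 total replicate 3. Dync1h1, the dynein heavy chain, stood at 279 and 292 CPM in WT total RNA, 329.9 and 321 in AUF1 total RNA, 302 and 214 on WT polysomes, and 277 and 196 on AUF1 polysomes and did not pass. For Dync1h1 the log2 difference was 0.24 ± 0.16 (SE, edgeR adjusted p = 0.3). Ahnak, a scaffold protein under the cell membrane, stood at 656 and 906 CPM in WT total RNA, 452 and 686 in AUF1 total RNA, 594 and 816 on WT polysomes, and 679 and 525 on AUF1 polysomes. For Ahnak the log2 difference was -0.29 ± 0.19 (SE, edgeR adjusted p = 0.29). Giant secreted and membrane proteins had 20 of 28 higher and 0 lower, with medians of 0.72 in WT total RNA, 1.07 in AUF1 total RNA, 0.93 on WT polysomes and 1.05 on AUF1 polysomes, and a median of 0.95 in the fit of all libraries, against 1.75 and 1.67 for the secreted and membrane lists. This list also holds proteins under 2000 residues, such as Plxnb2, a semaphorin receptor of 1842 residues. Plxnb2 ranged over 304 to 805 CPM in replicate 1 and 70.4 to 103 CPM in replicate 3. Tenascin C (Tnc) ranged over 155 to 274 CPM in replicate 1 and 32.1 to 56.0 CPM in replicate 3. The mechanosensitive channel Piezo1 and Col6a3 of type VI collagen differed 3.70-fold and 2.74-fold. By sequence alone, 196 tested genes encoded proteins of at least 2000 residues with neither feature, and their medians were -0.71 in WT total RNA, -0.79 in AUF1 total RNA, 0.25 on WT polysomes and 0.40 on AUF1 polysomes.

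In total RNA the difference between the numbers also went with the base composition of the mRNA, with little such relation on polysomes. Among genes with neither protein feature, transcripts with at most 40% G and C bases had medians of -0.78 and -1.602 in WT and AUF1 total RNA and -0.16 and -0.18 on WT and AUF1 polysomes (419 genes). Transcripts with over 60% had 0.04 and 0.44 in WT and AUF1 total RNA and -0.31 and -0.30 on WT and AUF1 polysomes (438 genes). Across the 7205 such genes whose log2 CPM averaged 3 or more, Pearson's r between G and C content and the difference was 0.45 and 0.70 in WT and AUF1 total RNA and -0.04 and -0.03 on polysomes, a description over genes that share libraries and are not replicates. Length went with the difference in opposite directions. From under 100 residues to 2000 or more, the medians went from 0.04 to -0.71 in WT total RNA and from 0.13 to -0.79 in AUF1 total RNA, and from -0.58 to 0.25 on WT and -0.67 to 0.40 on AUF1 polysomes. Among giant proteins with neither feature, those with at most 45% G and C had medians of -1.01 in WT total RNA, -1.74 in AUF1 total RNA, 0.26 on WT polysomes and 0.46 on AUF1 polysomes (40 genes). Those with over 50% had -0.37 in WT total RNA, -0.02 in AUF1 total RNA, 0.28 on WT polysomes and 0.40 on AUF1 polysomes (97 genes). Genes with a stretch or 2 or more segments lay 1.68 above genes with neither in median log2 difference when only transcripts with 45% to 55% G and C were taken.

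**Figure D5:**
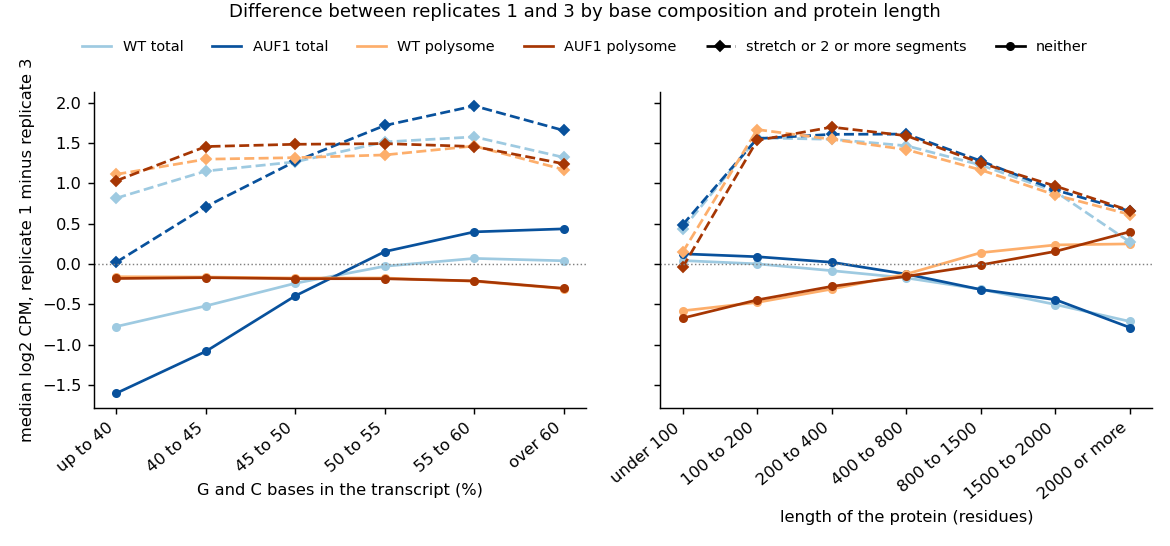
Median difference in log2 CPM between replicates 1 and 3 (y axis) by G and C content of the transcript in percent (left) and length of the protein in residues (right), with colours for the 4 groups, dashed lines and diamonds for genes with a stretch or 2 or more segments, and solid lines and circles for genes with neither. Solid lines for polysomes are flat on the left while those for total RNA climb from -1.602 and -0.78, and dashed lines lie above the solid ones of the same group in every bin.

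Short proteins of the classes with a stretch or several segments differed least. Below 100 residues, genes with a stretch or 2 or more segments had 15 higher and 3 lower calls of 59, with a median of 0.20. These shares, 25.4% and 5.08%, lay near the 20.8% and 8.98% of all genes. Genes with neither feature below 100 residues had 4 higher and 31 lower of 163, with a median of -0.29. From 100 to 199 residues, genes with a stretch or 2 or more segments had 171 higher and 1 lower of 224, with a median of 1.71. From 800 residues on the median of the genes with a stretch or 2 or more segments was lower in each longer bin. It went down to 0.57 for proteins of 2000 residues or more. These bins were chosen after the values were seen.

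The difference between the numbers itself differed between fractions for 845 genes by edgeR's interaction test (2 residual degrees of freedom), being more positive on polysomes for 641 (4.87%) and in total RNA for 204 (1.55%). With neither feature 520 of 8917 genes were more positive on polysomes and 145 in total RNA, and with a stretch or 2 or more segments 52 and 36 of 2700, 5.83% and 1.63% against 1.93% and 1.33%. This count rested on scaling and on single libraries: it was 0 with DESeq2 size factors, with 3625 genes at an unadjusted p under 0.05, and 0 without AUF1 total replicate 3. No gene was called for a difference between genotypes (0 of 13167, 0%), with 570 at an unadjusted p under 0.05, and DESeq2 called 21. At a median standard error of 0.28 on the log2 scale for the fraction interaction, and with 2 residual degrees of freedom, modest differences between groups were not detectable with these 8 libraries.

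The 10 largest rises, among 1305 called genes whose log2 CPM averaged 5 or more and whose 4 pairs all lay above 0, were Bsg, Igfbp7, Prdx4, Ctsb, Pigt, Igfbp2, Aplp1, Cst3, Sdc3 and Mfge8. Igfbp2, another binding protein of insulin-like growth factors, stood at 482 and 44.7 CPM in WT total RNA, 1417 and 34.02 in AUF1 total RNA, 302 and 43.4 on WT polysomes, and 780.1 and 34.4 on AUF1 polysomes. Its replicate 1 libraries were higher with AUF1 while its replicate 3 libraries lay close together. This difference between genotypes, 1.83 on the log2 scale, did not pass edgeR's interaction test (adjusted p = 0.65). For Igfbp2 the log2 difference was 4.02 ± 0.40 (SE, edgeR adjusted p = 4.8e-05). Aplp1, a relative of the amyloid precursor protein, ranged over 51.6 to 73.2 CPM in replicate 1 and 2.82 to 4.495 CPM in replicate 3, and Mfge8, a secreted glycoprotein that marks dying cells for uptake, over 118 to 372 CPM in replicate 1 and 11.8 to 17.1 CPM in replicate 3. Pigt, a subunit of the enzyme that attaches lipid anchors in the ER, ranged over 99.5 to 146 CPM in replicate 1 and 5.27 to 10.4 CPM in replicate 3 and was sorted as having neither feature. The largest falls, among 730 eligible genes, were smaller, from -1.26 to -1.58 on the log2 scale, and of the 730 genes 685 encoded proteins with neither feature. They were Neb, Arhgap5, Dynlt3, Trib3, Fam102b, Mir22hg, Gulp1, Dnajc21, Phf10 and 2700089E24Rik. Dynlt3, a dynein light chain, stood at 138 and 312 CPM in WT total RNA, 48.8 and 237 in AUF1 total RNA, 199 and 415 on WT polysomes, and 147 and 308 on AUF1 polysomes, lower in replicate 1 in each pair. For Dynlt3 the log2 difference was -1.39 ± 0.22 (SE, edgeR adjusted p = 0.0011). Trib3, a pseudokinase induced by cell stress, ranged over 12.2 to 53.6 CPM in replicate 1 and 38.2 to 107 CPM in replicate 3. For Trib3 the log2 difference was -1.37 ± 0.21 (SE, edgeR adjusted p = 9.0e-04).

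Some genes did not follow the class of their protein. Of the genes with neither feature and an average log2 CPM of 5 or more, 27 were called at least 4-fold higher in replicate 1, and several of them encode proteins known from the ER or from outside the cell, which the hydropathy rule missed. Among them were Tmed9, a cargo receptor between ER and Golgi (321 to 386 CPM in replicate 1 and 22.1 to 37.4 CPM in replicate 3). Rcn3, a calcium-binding protein of the ER, and Hsd17b12, an ER enzyme of lipid synthesis, differed 10.3-fold and 11.3-fold. In the other direction, 10 genes with a stretch or 2 or more segments at that level were called lower in replicate 1, among them Mthfd2, Psd3 (log2 difference -1.23 ± 0.29 (SE), adjusted p = 0.01) and Bmi1, a nuclear Polycomb protein. For Bmi1 the log2 difference was -0.88 ± 0.21 (SE, edgeR adjusted p = 0.01). These exceptions were picked after their values were seen.

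How often a call held under other settings was counted for the named genes. Most of these were picked as called genes with large differences or small p in the same libraries. Their counts therefore do not describe all called genes. Of 63 named genes of the classes with a stretch or 2 or more segments that were called higher, 56 were called under all 18 alternatives, 7 lost the call without the pairing by group and 3 when some single library was left out. Of the 97 named genes called higher in any class, 73 were called under all 18, 21 lost the call without the pairing and 13 when some single library was left out. Of 40 named genes called lower, 2 were called under all 18, 36 lost the call without the pairing, and 17 when some single library was left out, 13 of them a WT total library.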

How the data were processed

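Whole-number counts per gene symbol were deposited by the authors in 1 table for all 8 libraries. Reads were mapped to mm10, and cutadapt, Bowtie, Trimmomatic, STAR and SAMtools were used, per the submitters' processing notes. The sources used here do not give their roles and versions, the counter, its strand setting or the annotation. Without a stated strand setting, reads of overlapping and antisense genes cannot be told apart. Lines without a gene were left out. They held 6.04% to 7.23% (no feature) and 0.254% to 0.389% (ambiguous) of all counts, those of genes and of these lines together. Another 27 lines with dates for names stayed in the table unnamed.

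Genes passing filterByExpr (13167 of 23420) were scaled by TMM and tested with edgeR 4.0.16 in R 4.3.3 (quasi-likelihood, group plus replicate number, 3 residual degrees of freedom, Benjamini-Hochberg adjustment at 0.05). The pairing is that of group, so each group serves as its own control. Interactions with fraction and genotype left 2 residual degrees of freedom. The SE of a log2 difference was calculated back from the test, as its absolute value divided by the square root of the F statistic. Log2 CPM used a prior count of 2. The exact sign-flip test went through all 16 arrangements of sign with numpy 2.4.6. The model was tested on simulated data. DESeq2 1.42.0, other scalings, no filter, no group terms, subsets and leaving out each library were alternatives.

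Protein features came from GENCODE M21 transcripts translated for this purpose, since no protein table was used, with the APPRIS principal transcript. The principal transcript replaced the longest coding sequence after Sparc was seen to be misclassified, and some principal transcripts are short isoforms. Merging of classes, bins and displayed sequences were also chosen after values were seen, and the members and all 39 lists were chosen with earlier results of these data known. Named genes were a fixed set, the 10 largest rises and 10 largest falls whose log2 CPM averaged 5 or more with all 4 pairs on the same side, and up to 4 called members of each list with the smallest p. The mitochondrially encoded list is not analysed here, and some genes that the rule names are not reported here. With 2 libraries per group at 25281224 to 34917660 counts, the median standard error of a log2 difference was 0.20.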

Additional observations from a re-analysis of the deposited data

Results flagged for a closer look

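For 845 genes the difference between the replicate numbers itself differed between polysomes and total RNA by edgeR's interaction test, and 6 of the named genes were among them. Values are the log2 difference on polysomes minus that in total RNA. Psap, the saposin precursor, had -1.16 (adjusted p = 0.029), from pair differences of 4.10 in WT total RNA, 4.31 in AUF1 total RNA, 3.07 on WT polysomes and 3.02 on AUF1 polysomes. Titin (Ttn) had 1.17 (adjusted p = 0.035) and nebulin (Neb) 1.56 (adjusted p = 0.034). Malat1, a long noncoding RNA of the nucleus, had 1.76 (adjusted p = 0.031), from pair differences of -0.94 in WT total RNA, -1.22 in AUF1 total RNA, 1.04 on WT polysomes and 0.33 on AUF1 polysomes, so that its sign differed between the fractions. Arhgap5 had 2.09 (adjusted p = 0.028) and the cochaperone Dnajc21 0.997 (adjusted p = 0.047). With DESeq2 size factors, and without AUF1 total replicate 3, none of these calls was made.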

How the results depend on the processing

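Without the replicate block, that is, without the pairing of libraries by group, 2035 genes were called in place of 3923, 84 of them lower. All 2035 were among the 3923. Leaving out 1 library gave 2590 to 4202 calls, 2255 to 2709 higher and 323 to 1542 lower. Lower calls, 1183 in all, numbered 516 in AUF1 libraries only, 386 in WT only, 2165 on polysomes only, 2200 in total RNA only, 2168 with DESeq2, 2200 with library totals and 423 with scaling on genes with neither feature. Calls for the difference between fractions numbered 1595 with DESeq2, 0 with DESeq2 size factors, 1512 without a filter and 0 to 3194 without 1 library. Those for genotype numbered 21 with DESeq2, 11 without a filter and 4 to 198 without 1 library.

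The gap between ER classes and neither was 1.73 in AUF1 only and 1.67 to 1.70 without 1 library. With library totals, medians were 1.30 (stretch only), 1.49 (stretch and segments), 1.21 (2 or more segments), 0.16 (1 segment), 1.33 (the 3 classes merged) and -0.35 (neither). With scaling on genes with neither feature they were 1.61, 1.801, 1.52, 0.47, 1.64 and -0.036, and 0.086 for the tail segment. With DESeq2 and with its size factors, they were 1.40 (stretch only), 1.43 (merged) and -0.25 (neither). Stretch only was 1.33 in AUF1 only and 1.34 on polysomes only. Without a filter, medians were 1.53 (stretch and segments), 0.46 (1 segment) and 0.072 (tail segment), and in total RNA only 0.42 (1 segment), 0.19 (tail segment) and -0.11 (neither). On polysomes only, 1 segment gave 0.41. Without 1 library, the ranges were 1.42 to 1.53, 1.59 to 1.69, 1.27 to 1.41, 0.33 to 0.38, -0.16 to 0.015, -0.22 to -0.15 and, merged, 1.46 to 1.54.

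The median of the 5 tested neural and glial markers, -0.10, was 0.078 on polysomes only, 0.0493 with scaling on neither, 0.17 and 0.18 without AUF1 total replicate 1 and replicate 3, and -0.26 to 0.18 when any 1 library was left out. Malat1, at -0.22, was 0.67 on polysomes only. For single named genes, 268 alternative values lost the call and 17 gained it. The cause was not tested.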

Other observations

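Lists that were not drawn up for the secretory pathway also held genes that differed between the numbers, though some of their members have an N-terminal stretch. Of 21 immediate early genes, which serum and stress switch on within minutes, 11 were higher in replicate 1 and 1 lower (median log2 difference 0.58). Of 15 genes of the response to unfolded proteins and lack of amino acids, 2 were higher and 6 lower (median -0.51). The 33 tested cell cycle genes had 4 higher and 0 lower, with medians of -0.14 in WT total RNA, 0.72 in AUF1 total RNA, 0.10 on WT polysomes and 0.96 on AUF1 polysomes. Histone genes had 0 higher and 2 lower of 18, and selenoprotein genes 5 and 0 of 11. Of these 11 selenoproteins 4 have an N-terminal stretch and no segment, among them Sepp1 and Gpx3, both called higher. Sepn1 (8.44-fold) and Selk (1.95-fold), also called higher, were sorted as having neither feature. That class also holds some proteins of the ER which the hydropathy rule missed. Splicing factors had 1 and 1 of 39, and nuclear noncoding RNAs 1 and 1 of 15. The background over all genes was 20.8% higher and 8.98% lower.

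Among cell type markers, 8 of 9 tested for fibroblasts were higher in replicate 1 and 0 lower (median 1.84). Of the 13 fibroblast markers only 1 encodes a protein with neither feature. Muscle markers had 3 higher and 1 lower of 15. At 20% and 6.67% these lay near the 20.8% and 8.98% of all genes. The 3 higher were Chrna1 and Cdh15, whose proteins have a stretch and segments, and Tmem8c, sorted as having neither feature. Smooth muscle markers had 0 and 0 of 7, immune markers 2 and 0 of 5, and endothelial markers 0 and 1 of 3. Adipocyte markers had 1 and 1 of 3, and neural and glial markers 0 and 1 of 5.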
